A study of Mus musculus with 8 samples.

Results

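The genes described here are Kit, the receptor that red cell precursors and stem cells use to sense stem cell factor, its ligand Kitl, and 4 secreted growth factors of the blood-forming niche, Bmp4, Igf1, Gdf15 and Tgfb1. They were chosen by name, 6 of the 19669 genes in the count table, to ask which class of cell made each factor and which carried the receptor. All 6 were found by symbol.

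The cells came from erythroblastic islands, clusters of maturing red cells around a central macrophage, isolated from male mice of the lupus-prone strain Sle1.Yaa on albumin gradients and dispersed with EDTA and light mechanical force. Single-cell RNA libraries were made with 10x Genomics v3.1 chemistry. By the labels, 2 marrow and 2 spleen libraries came from Sle1.Yaa.huTLR8tg mice, whose human TLR8 transgene the controls lack, all labelled anemic. The non-anemic controls were 3 marrow libraries and 1 spleen library of Sle1.Yaa mice without the transgene, so every mouse carried the Sle1.Yaa background. The labels name neither the animals' ages nor the promoter of the transgene. The columns of the table carried barcodes alone, and no cell could be tied to a library, tissue or genotype. The effect of the transgene on these genes was therefore not analysed here, and all values describe the pooled cells.

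Kit is a receptor tyrosine kinase that keeps stem cells, mast cells and early red cell progenitors alive, and it is lost as erythroblasts begin to make globin. Its ligand, made as a membrane-bound and a shed form, is known from marrow stromal cells and endothelium. Bmp4 drives the expansion of stress erythroid progenitors in mouse spleen, Igf1 promotes late erythroid growth, Gdf15 is a stress-induced member of the TGF-beta family, and Tgfb1 restrains progenitor division and is stored in platelets.

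The table held 24942 cells with a median of 7554 unique molecular identifiers (UMIs, each counting 1 captured RNA molecule) and 500 to 83490 UMIs per cell. Barcodes fell into 8 alphabetically sorted stretches, here called runs and taken as unnamed libraries, of 447 to 6787 cells and a median of 3512 to 11661 UMIs. Across runs, 287 barcodes occurred more than once, covering 1031 cells. Clusters of 24925 cells were named from marker genes, with the 6 genes and their partner lists kept out of the clustering. There were 13 named classes, 3 unnamed clusters and 2 small sets of marker cells. Levels are CPM, the UMIs of a gene summed over a class and divided by all UMIs of that class, times 1000000, with exact 95% Poisson intervals. Intervals cover counting error only. Cells are not replicates and the runs are not named libraries, so the table was treated as 1 pooled sample and no test between classes was made.

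Each gene had its own distribution over the classes. Kitl and Bmp4 were highest in 45 cells with stromal markers, Igf1 and Gdf15 in macrophage-like cells, Tgfb1 in megakaryocyte-like cells, and Kit in progenitors. Kit had 2961 UMIs in 1773 cells, 7.11% of all cells. Kitl had 347 UMIs in 143 cells and Bmp4 only 29 UMIs in 21 cells. Igf1 had 1501 UMIs in 461 cells, and Gdf15 had 2568 UMIs in 693 cells. Tgfb1 was the most widely detected, with 30756 UMIs in 10993 cells, 44.1% of all cells. Counts of different genes are not compared as levels, since capture differs between genes.

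**Figure D1:**
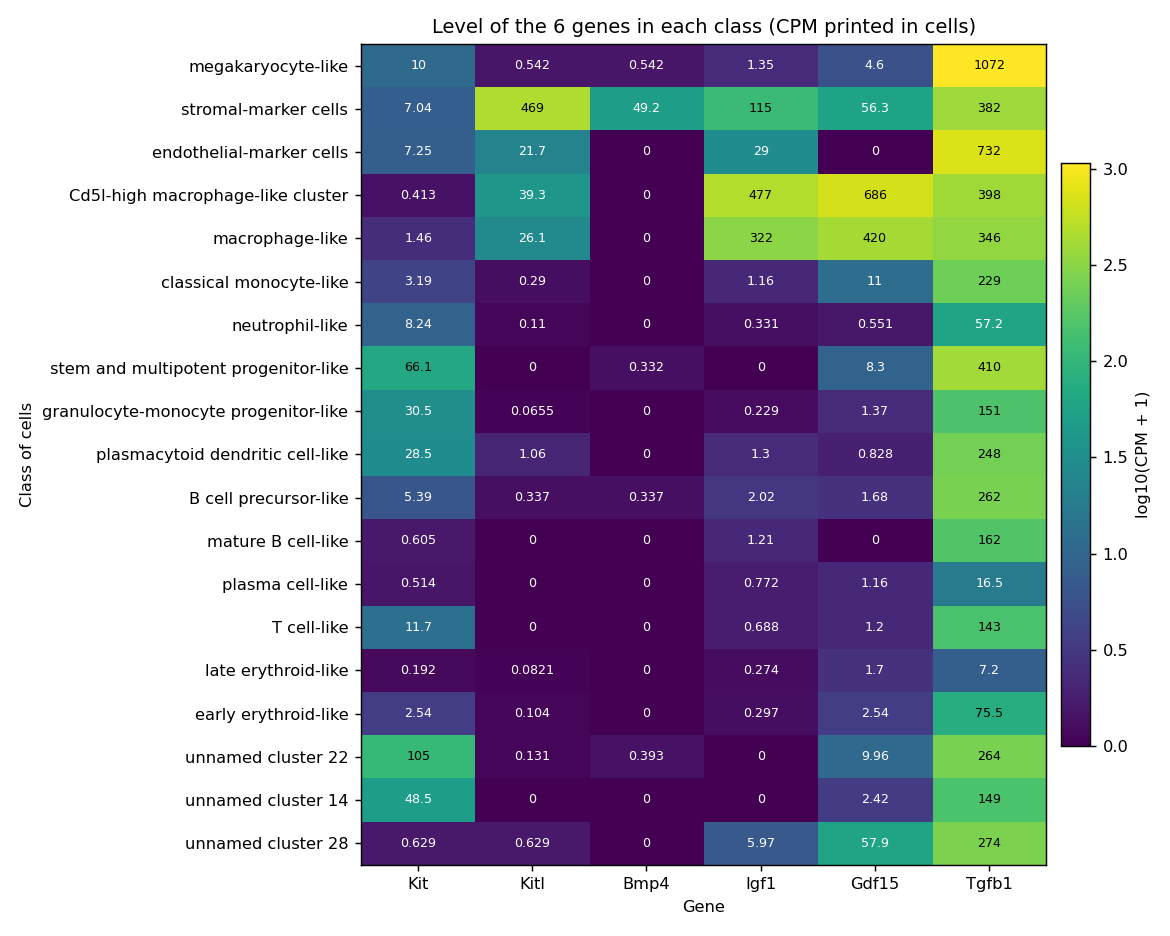
Level of each of the 6 genes (columns) in each cell class and unnamed cluster (rows), in CPM printed in the cells and shaded on a log scale, where a printed 0 is a level under 0.05 CPM. Kitl reached 469 CPM in stromal-marker cells, Igf1 322 and Gdf15 420 CPM in macrophage-like cells, and Tgfb1 1072 CPM in megakaryocyte-like cells.

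On mouse build GRCm38, Kit lies on the plus strand at chr5:75574916-75656722 and Kitl on the plus strand at chr10:100015630-100100416. Igf1 lies on the plus strand at chr10:87858265-87937042, Tgfb1 on the plus strand at chr7:25687002-25705077, Bmp4 on the minus strand at chr14:46383520-46390669 and Gdf15 on the minus strand at chr8:70629393-70632456. The 250 bases before the gene start are shown for the 3 factors whose window overlaps no annotated exon, because these 3 factors had 3 different leading sources, stromal-marker cells, macrophage-like cells and megakaryocyte-like cells. The sequences are from RefSeq on GRCm38.p6, 5′ to 3′ along the gene, at chr14:46390670-46390919 for Bmp4, chr8:70632457-70632706 for Gdf15 and chr7:25686752-25687001 for Tgfb1. Capitals mark matches to GGGCGG, the GC box bound by Sp1, or its reverse complement CCGCCC.
Bmp4: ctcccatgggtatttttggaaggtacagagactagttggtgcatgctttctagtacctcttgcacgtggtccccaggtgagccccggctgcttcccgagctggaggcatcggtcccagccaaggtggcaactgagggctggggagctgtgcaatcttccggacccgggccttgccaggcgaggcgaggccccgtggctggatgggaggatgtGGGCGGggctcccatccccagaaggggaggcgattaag
Gdf15: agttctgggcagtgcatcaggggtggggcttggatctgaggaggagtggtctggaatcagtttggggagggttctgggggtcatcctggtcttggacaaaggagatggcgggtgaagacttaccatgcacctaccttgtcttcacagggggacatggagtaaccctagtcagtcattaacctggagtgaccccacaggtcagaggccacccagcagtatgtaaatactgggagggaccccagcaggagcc
Tgfb1: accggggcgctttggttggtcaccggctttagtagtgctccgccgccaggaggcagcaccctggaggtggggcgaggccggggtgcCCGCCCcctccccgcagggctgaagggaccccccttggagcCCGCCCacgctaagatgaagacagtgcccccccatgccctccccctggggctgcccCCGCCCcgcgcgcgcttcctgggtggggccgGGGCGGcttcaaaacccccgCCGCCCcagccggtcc
The Tgfb1 window held 5 GC boxes and had 75.2% G and C, against a median of 52.4% over all promoters. The Bmp4 window held 1 GC box and had 63.2% G and C, and the Gdf15 window held none and had 56.4%. A GC box was found in 32.7% of 32851 promoter windows of the same length. None of the 3 printed windows matched GAGGAA, the core of sites bound by PU.1 and Spi-C, which 23.3% of promoters held. Windows that overlap exons and are not printed did: 2 matches lay before a second Gdf15 start, 1 before Igf1 and 1 before Kit. None of the printed windows matched TGATGNAA, the core of composite ATF4 sites (3.45% of promoters), the AP-1 motif TGAGTCA (4.46%) or the TATA box TATAAA (12.4%). All motifs were searched on both strands, and a match is a description of letters, not of binding.

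Among the named classes Kit was highest in the stem and multipotent progenitor-like cells, and a cluster that stayed unnamed had more over the pooled runs. That cluster, cluster 22 in the plots, held 489 cells and was led by Prss34, Mcpt8, Cpa3, Fcer1a, Prg2 and Gata2, genes of basophils, mast cells and their progenitors, while 11 of the 14 stem and progenitor markers exceeded 50 CPM in it. Its Kit level was 105 CPM (98.2 to 113), from 804 UMIs, 27.2% of all Kit UMIs. Kit was found in 60.1% of its cells. In its 5 runs with at least 20 cells Kit stood at 94.6, 107, 121, 117 and 20.5 CPM. Runs 1 to 4 were alike and run 6, with 22 cells, was low. Run 6 was the only run with at least 20 cells of both this cluster and the stem-like class. There the stem-like cells had 65.7 CPM, so the pooled order was reversed. The 2 sets lay mostly in different runs, and their order cannot be told apart from a difference between runs. At a finer cluster resolution the cluster divided into 374 stem-like cells with 115 CPM of Kit and 115 basophil- and mast-like cells with 37.7 CPM. In the basophil- and mast-like set 5 cells held all 37 UMIs. Of the 22 cells of the cluster in run 6, 19 were in the basophil- and mast-like set.

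The stem and multipotent progenitor-like class had 387 cells, 384 of them in run 6, and a Kit level of 66.1 CPM (57.2 to 76.0). Kit was detected in 37.0% of these cells. Granulocyte-monocyte progenitor-like cells, the precursors of neutrophils and monocytes, had 30.5 CPM (28.6 to 32.5) and gave 31.4% of all Kit UMIs. Over their 7 runs the level was 16.3 at the lowest, 25.8 at the median and 35.6 CPM at the highest. All 7 were below the stem-like value. Kit was 2.17-fold higher in stem-like than in granulocyte-monocyte progenitor-like cells, a log2 ratio of 0.91 (0.72 to 1.10), which does not reach the 2-fold mark after the added 10 CPM. In run 6, the single run with enough cells of both classes, the log2 ratio was 0.94.

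Plasmacytoid dendritic cell-like cells carried 28.5 CPM of Kit, next to the granulocyte-monocyte progenitor-like level, with runs at 20.01 at the lowest, 26.6 at the median and 65.3 CPM at the highest. These runs overlapped those of the granulocyte-monocyte progenitor-like cells. T cell-like cells had 11.7 CPM, from 68 UMIs in 42 cells, and megakaryocyte-like cells had 10.02 CPM. Neutrophil-like cells had 8.24 CPM, and most of it came from 1 cluster with 11.1 CPM, while another neutrophil-like cluster had 0.453 CPM. Mature B cell-like cells, which should lack Kit, had 2 UMIs and a share of 0.348% of cells with a UMI at a median of 5088 UMIs per cell. Cells of the unnamed progenitor cluster had a median of 15708 UMIs, stem-like cells 6823 and granulocyte-monocyte progenitor-like cells 25218. Cells with at least 1000 UMIs were then thinned to 1000 UMIs, and shallower cells were left out. The share with Kit was then 8.62% in the unnamed progenitor cluster, 7.55% in stem-like cells and 3.0% in granulocyte-monocyte progenitor-like cells, against 0.176% in mature B cell-like cells. Another unnamed cluster, of 819 shallow cells with a median of 787 UMIs, had 48.5 CPM of Kit, but 637 of its cells carried a barcode found in more than 1 run.

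**Figure D2:**
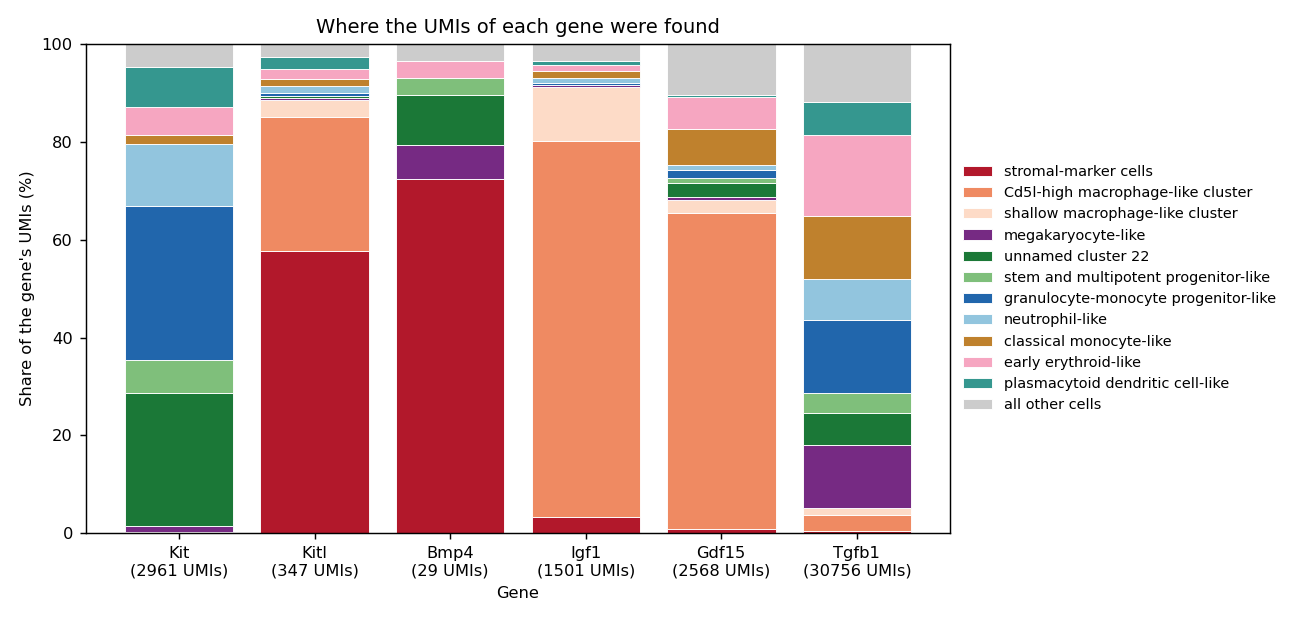
Share of the UMIs of each gene (y axis, in percent, 1 bar per gene) that came from each class or cluster, marked by colour. Kit was spread over progenitors, with 31.4% in granulocyte-monocyte progenitor-like cells and 27.2% in the unnamed progenitor cluster, while 88.0% of Igf1 came from macrophage-like cells and 57.6% of Kitl from 45 stromal-marker cells.

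In the red cell line Kit was found mostly in cells with little globin. Cells of the early and late erythroid-like clusters were placed in 5 bins by the share of globin in their UMIs, a range of a score and not a cell type, and levels were taken as CPM with globin left out of the totals. With under 2% globin, 934 cells had 15.6 CPM of Kit (13.2 to 18.4), from 145 UMIs. At 2 to 20% globin the level was 0.899 from 18 UMIs, at 20 to 60% it was 0.342 from 7 UMIs, at 60 to 80% it was 0.675 and at 80% or more it was 2.14, both from 4 UMIs. The lowest bin was thus far above the next, and the later bins rested on so few UMIs that they cannot be ordered. In the lowest bin, runs gave 2.42 at the lowest, 11.4 at the median and 35.3 at the highest. The log2 ratio between the under 2% bin and the 2 to 20% bin was 1.23 with 10 added to each. Much of it came from 1 early erythroid-like cluster of 403 cells, 354 of them in run 6, with 132 Kit UMIs and 17.8 CPM. Without run 6 the under 2% bin had 10.9 CPM of Kit from 33 UMIs, and the 2 to 20% bin had 0.748 from 11 UMIs.

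Among the factors, Tgfb1 was lower in the cells with 60% globin or more, with 138, 87.0, 92.9, 55.2 and 45.0 CPM on this scale from the lowest to the highest bin. The log2 ratio of the highest over the lowest bin was -1.43. Run 6 was an exception and stayed between 140 and 210 in every bin, and it gave most UMIs of the lowest bin. Without run 6 the bins held 71.8, 68.1, 74.1, 23.9 and 21.4 CPM, so the first 3 were alike and the last 2 lower. Gdf15 was low throughout, at 1.61, 2.10, 6.49, 4.90 and 7.50 CPM from the lowest to the highest bin. Its middle bin rested on 133 UMIs, and runs ranged there from 1.5 to 26.6, so the bins overlapped. Kitl and Igf1 stood at 0.54 or less and at 2.14 or less in every bin, and Bmp4 gave 1 UMI in all bins.

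**Figure D3:**
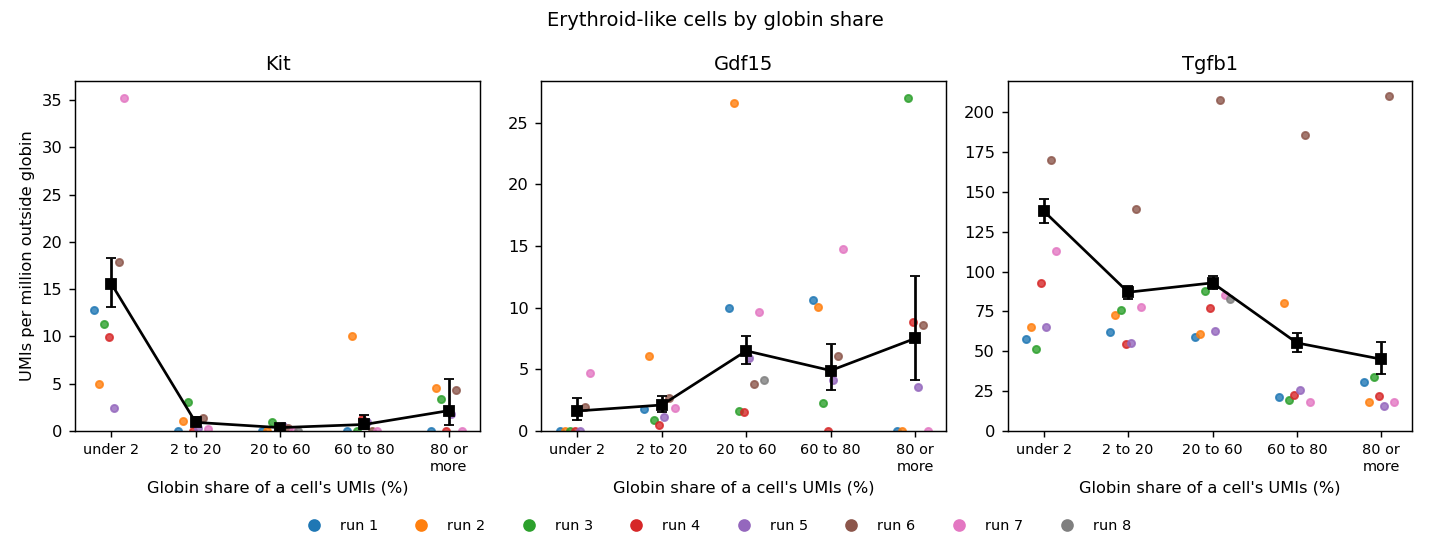
Level of Kit, Gdf15 and Tgfb1 in 5 bins of rising globin share (x axis), in CPM outside globin (y axis), pooled with 95% Poisson intervals and per run as points. Kit was at 15.6 in cells with under 2% globin and at 0.899 in those with 2 to 20%, while Tgfb1 was at 138 in the lowest and 45.0 in the highest bin, with run 6 above the other runs.

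Kitl was concentrated in the stromal-marker cells, defined by at least 3 genes of a stromal marker list. Their Kitl level was 469 CPM (406 to 539), and 37 of the 45 cells (82.2%) had a Kitl UMI. All 37 also had Cxcl12, the chemokine of marrow reticular stroma. Cxcl12 is on the list that chose these cells and was found in 42 of the 45, so this overlap was largely set by the choice. The stromal-marker cells gave 200 of the 347 Kitl UMIs, 57.6%. Of these cells 32 were in run 6, where Kitl was 545 CPM, and 5 cells in run 3 had 478 CPM. Cells with Cxcl12 and no Col1a1, a collagen chain, had 505 CPM of Kitl in 32 cells, and 13 cells with Col1a1 had 382 CPM. All 10 stromal genes were detected, with a summed level of 28335 CPM. The cells were chosen by these genes, so that level is no check of the label. The 14 macrophage markers were also all detected, at 4083 CPM in sum, and 33 of these cells had come from a macrophage-like cluster. The 16 cells with at least 5 macrophage markers had 537 CPM of Kitl, the 29 with fewer had 416 CPM, and the 10 with under 3 had 117 CPM. All 8 endothelial markers were detected as well, at 2934 CPM in sum, and 19 of the 45 cells had at least 3 of them. Cells that met both marker rules were placed in the stromal-marker set. The part that endothelial cells or joined cells play in these values was not tested.

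Macrophage-like cells came next for Kitl with 26.1 CPM from 107 UMIs, and in 8 runs the level was 0 at the lowest, 13.99 at the median and 51.0 CPM at the highest. Within them a cluster of 311 cells led by Cd5l, Mrc1, Fcna, Hmox1 and Vcam1, genes of red pulp and island macrophages, had 39.3 CPM (31.8 to 48.0). It held 95 Kitl UMIs in 60 cells, of which 54 had Cd5l and 3 had Cxcl12. Both counts follow in part from how the cells were chosen. Cd5l leads the cluster, and cells with at least 3 stromal genes, a list that holds Cxcl12, had been set apart. The source of these Kitl UMIs was not tested. The 3 runs with at least 20 cells of this cluster had 28.5, 49.4 and 44.7 CPM. All 3 were above every class outside the stromal and endothelial sets. The shallow macrophage-like cluster, of 1490 cells with a median of 820.5 UMIs, had 7.13 CPM. Kitl was 18.0-fold higher in stromal-marker cells than in macrophage-like cells, a log2 ratio of 3.73 (3.44 to 4.01), and 3.19 in run 6 alone. The 28 endothelial-marker cells had 21.7 CPM from 3 UMIs (4.48 to 63.5). They exclude every cell with at least 3 stromal genes, so these sets do not separate stromal from endothelial Kitl. Neutrophil-like cells had 0.110 CPM, and Kitl was found in 0.128% of them at a median of 9915 UMIs per cell. No Kitl UMI was found in T cell-like, mature B cell-like, plasma cell-like or stem-like cells, which allows up to 0.516 CPM in T cell-like and 0.997 CPM in stem-like cells.

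Bmp4 was rare. Stromal-marker cells had 49.2 CPM (30.5 to 75.3), from 21 of the 29 UMIs in the table, 72.4%. These UMIs lay in 13 cells, 11 of which also had Kitl. Without run 6 the level was 7.63 CPM. The 16 stromal-marker cells with at least 5 macrophage markers had 75.2 CPM from 14 UMIs, and the 29 with fewer had 29.1 CPM from 7 UMIs. Megakaryocyte-like cells came next with 0.542 CPM from 2 UMIs, and the log2 ratio between the stromal-marker cells and these was 2.49 (1.91 to 3.02). The unnamed progenitor cluster gave 3 UMIs. No Bmp4 UMI was found in the macrophage-like cells left after the marker cells were set apart, which allows up to 0.731 CPM. This 0 depends on that step, since 33 of the 45 stromal-marker cells had clustered with the Cd5l-high cells. With all marker cells returned to their clusters, macrophage-like cells led for Bmp4 with 3.63 CPM from 16 UMIs, and they led for Kitl with 62.1 CPM from 274 UMIs. Whether these UMIs came from stromal cells, endothelial cells, macrophages or cells joined together was not tested.

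Igf1 was a gene of macrophage-like cells. These had 322 CPM (305 to 340) from 1321 UMIs, 88.0% of all Igf1 UMIs, with runs at 19.1 at the lowest, 281 at the median and 492 CPM at the highest. The Cd5l-high cluster alone had 477 CPM (449 to 505) and gave 76.8% of all Igf1 UMIs. Runs 5, 6 and 7 had 468, 472 and 548 CPM and were alike, while the 17 cells in run 3 had 256 CPM. Igf1 was found in 237 of its 311 cells (76.2%), and in 38.9% after thinning to 1000 UMIs. The shallow macrophage-like cluster had 99.9 CPM, with runs from 6.39 to 543. Stromal-marker cells had 115 CPM, 166 CPM in those with at least 5 macrophage markers and 74.9 CPM in those with fewer. The log2 ratio of macrophage-like over stromal-marker cells was 1.41 (1.03 to 1.81), a 2.80-fold difference in level, but it was 0.65 at a coarser cluster resolution. Classical monocyte-like cells had 1.16 CPM, with a UMI in 0.938% of cells at a median of 12932 UMIs, more than the 5358 of the Cd5l-high cells.

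Gdf15 was highest in the same Cd5l-high cluster, at 686 CPM (653 to 720), 64.6% of all its UMIs. It was found in 210 of the 311 cells (67.5%), in 37.8% after thinning, and in 1 cell with 85 UMIs. Here the runs differed: run 5 had 119 CPM, run 6 had 1129 CPM and run 7 had 549.9 CPM, with 999 CPM in the 17 cells of run 3. The Igf1 levels of the same cells in those runs, 468, 472 and 548 CPM, did not follow this order. Macrophage-like cells as a whole had 420.1 CPM (400.5 to 440), with runs at 10.3 at the lowest, 387 at the median and 1079 CPM at the highest. The unnamed cluster of 403 cells led by Fcgr4 and Cd300e, genes of non-classical monocytes, had 57.9 CPM, and stromal-marker cells had 56.3 CPM. The log2 ratio of macrophage-like over stromal-marker cells was 2.70 (2.19 to 3.23). Classical monocyte-like cells had 10.96 CPM from 189 UMIs in 65 cells, with runs from 1.17 to 82.98 CPM. Early erythroid-like cells had 2.54 CPM and late erythroid-like cells 1.70 CPM.

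Of the 311 Cd5l-high cells, 181 had both Igf1 and Gdf15 and 45 had neither. Kitl was found in 60 of them, and 56 of these also had Igf1. Restricting to the 296 cells with at least 1000 UMIs left 231 with Igf1, 203 with Gdf15, 178 with both and 40 with neither. All 14 macrophage markers were detected in the cluster, at 36768 CPM in sum, and the stromal list summed to 20.3 CPM with Col3a1 and Lum at 0. Both sums follow in part from the choice of cells and check no label. The macrophage list named the cluster, and cells with at least 3 stromal genes had been taken out of it. Globin and other late erythroid markers summed to 36022 CPM in the cluster, and their part in these levels was not tested.

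**Figure D4:**
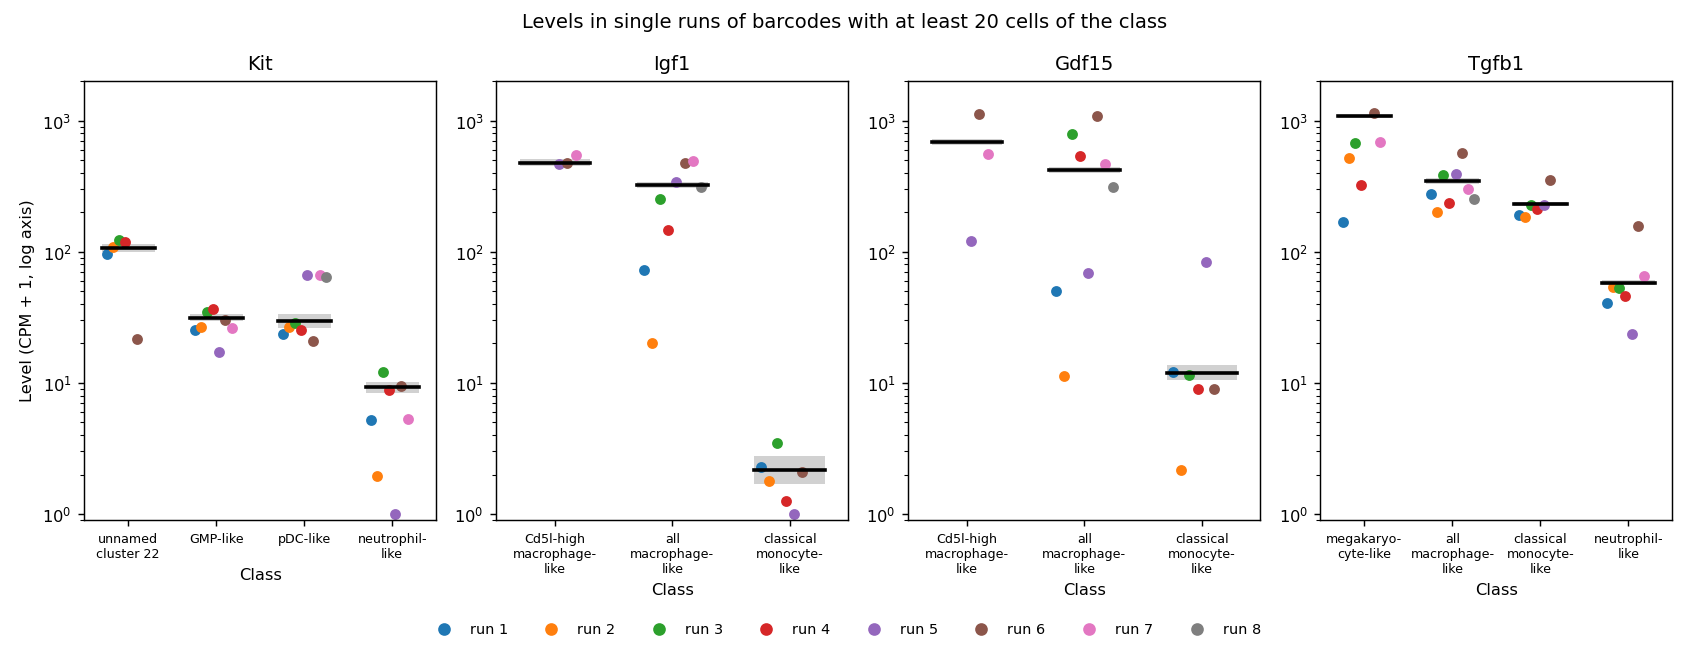
Level of Kit, Igf1, Gdf15 and Tgfb1 (CPM + 1, log axis) in each run with at least 20 cells (points) of the classes on the x axis, with the pooled level as a line and its 95% Poisson interval in grey. GMP is short for granulocyte-monocyte progenitor and pDC for plasmacytoid dendritic cell. Gdf15 in the Cd5l-high cluster was 119 CPM in run 5, 549.9 in run 7 and 1129 in run 6, while Igf1 lay between 468 and 548 CPM in the same runs.

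Tgfb1 was found in every class and was highest in megakaryocyte-like cells, the platelet precursors, at 1072 CPM (1039 to 1106). These 519 cells gave 12.9% of all Tgfb1 UMIs, and 338 of them were in run 6. Over their runs Tgfb1 was 167 at the lowest, 595 at the median and 1131 CPM at the highest, and without run 6 the pooled level was 510 CPM. The endothelial-marker cells had 732 CPM (596 to 890), found in 12 of 28 cells with 49 of the UMIs in 1 cell. Megakaryocyte markers summed to 38155 CPM in these endothelial-marker cells, against 27070 CPM in the megakaryocyte-like cells, and their part in the Tgfb1 value was not tested. The log2 ratio of megakaryocyte-like over endothelial-marker cells was 0.54 (0.26 to 0.84), short of 2-fold. Stem-like cells had 410 CPM and stromal-marker cells 382 CPM. Macrophage-like cells had 346 CPM, with runs at 201 at the lowest, 288 at the median and 563 CPM at the highest, which overlapped the classical monocyte-like runs of 184 at the lowest, 218 at the median and 354 CPM at the highest. Mature B cell-like cells had 162 CPM, early erythroid-like cells 75.5 CPM, neutrophil-like cells 57.2 CPM and plasma cell-like cells 16.5 CPM.

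For each gene the first class was set against the next, and the first counted as apart when it was at least 2-fold above after 10 CPM were added to both. Both rules were met by 4 of the 6 genes, Kitl, Bmp4, Igf1 and Gdf15, and by 14.1% of the 8997 genes with enough UMIs. Kit and Tgfb1 did not reach 2-fold. Under alternatives each ratio was kept to the same pair of classes, whichever class then came next. On that basis Kit had a log2 ratio of 1.41 over granulocyte-monocyte progenitor-like cells at the finer resolution. Tgfb1 had one of 2.0 over endothelial-marker cells without run 6. Without run 6 the ratio of Bmp4 was 0.82, short of 2-fold. Of these ratios only those of Kit, Kitl, Bmp4, Igf1 and Gdf15 could be looked at in a single run, run 6, because the stromal-marker and stem-like cells were few elsewhere. The 6 genes were chosen by name with earlier results of these data known, so the count describes them and is no test.

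Macrophage-like cells were next set against classical monocyte-like cells, the circulating precursors of many macrophages, over 6 runs with at least 20 cells of both. The macrophage-like cells had a median of 955 UMIs and the classical monocyte-like cells one of 12932. To be called, a gene had to be 2-fold apart on a scale centred on the median gene and keep its sign in all 6 runs. Of 6151 genes tested, 8.41% were higher and 6.6% lower in macrophage-like cells. Of the 6 genes, 4 reached the level needed and 2 of them, Igf1 and Kitl, were higher. Igf1, Kitl and Gdf15 reached it only through the macrophage-like class, so the comparison could not have found them lower and the count supports no direction. Igf1 had 322 CPM in macrophage-like and 1.16 CPM in classical monocyte-like cells, a centred log2 ratio of 4.98 with runs from 1.44 to 5.58. Kitl had 26.1 CPM in macrophage-like and 0.290 CPM in classical monocyte-like cells, a ratio of 1.90 with runs from 0.53 to 2.68. Gdf15 had a ratio of 4.45, but 1 of the 6 runs lay at -0.17 and it was not counted. Tgfb1 had 346 CPM in macrophage-like and 229 CPM in classical monocyte-like cells, a ratio of 0.66 with runs from 0.13 to 0.86. Kit and Bmp4 were below the level needed for this comparison.

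Of 44 tested partner genes in all lists, 13.6% were higher and 6.82% lower in macrophage-like cells, beside the 8.41% and 6.6% of all tested genes. Of 18 tested genes of Kit signalling, 2 were higher and none lower, with a median log2 ratio of 0.53 against 0 for all genes. These were Fyn, a Src-family kinase, at 155.8 CPM in macrophage-like and 23.9 CPM in classical monocyte-like cells, and Sos1, a Ras exchange factor, at 41.0 CPM in macrophage-like and 10.2 CPM in classical monocyte-like cells. Of 7 tested TGF-beta receptors and transducers, 2 were higher, the receptors Tgfbr2 at 160 CPM in macrophage-like and 21.7 CPM in classical monocyte-like cells (log2 ratio 2.51) and Tgfbr1 at 38.5 CPM in macrophage-like and 13.7 CPM in classical monocyte-like cells (1.12). Of 8 tested BMP receptors, Smads and targets, Smad1 (1.37) and Smad5 (1.08), which carry the BMP signal, were higher and the target Id3 (-1.40) was lower. The targets Id2 (2.23) and Id1 (-2.15) and the receptor Acvrl1 (1.38) had large ratios but did not keep their sign in every run. Of 5 tested stress-response genes that include regulators of Gdf15, only the cell-cycle inhibitor Cdkn1a was called, lower at 59.98 CPM in macrophage-like and 223 CPM in classical monocyte-like cells. Atf4, a stress transcription factor, had a ratio of -0.49, Ddit3, its downstream factor, had 0.51 and Atf3, another stress factor, had -0.99. Of 4 tested TGF-beta activation genes, Furin, a protease that processes the precursor, was lower (-1.01), and the activators Thbs1 (-2.03) and Itgav (1.86) were not called because their sign differed between runs. The 2 tested insulin-like growth factor genes, Igfbp4 (-0.81) and Irs2 (0.01), were not called, and no BMP ligand or antagonist reached the level for testing. Of the called genes, Sos1, Tgfbr1, Smad1 and Smad5 reached 20 CPM only in macrophage-like cells and Id3 only in classical monocyte-like cells. Their directions were fixed by that filter, so the counts of partner genes support no direction.

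The same comparison of late over early erythroid-like cells used 7 runs. Of 4229 genes tested, 11.7% were higher and 11.2% lower in late erythroid-like cells. Tgfb1 was the single growth factor gene that could be tested, at 7.2 CPM in late and 75.5 CPM in early erythroid-like cells. Its log2 ratio was -2.31, and -0.68 after centring on the median gene, which stood at -1.64. It fell short of 2-fold and was not called. Single runs gave centred ratios of -0.61 to 0.11, and with stricter filters on cells the pooled ratio was 0.15, so no direction is given. Of 5 tested Kit signalling genes 1 was called, the kinase subunit Pik3r1, at 81.7 CPM in late and 63.9 CPM in early erythroid-like cells, a centred ratio of 1.95. None of the 7 tested genes in the other partner lists was called, among them Furin, Irs2 and Atf4, with centred ratios of 0.85, 0.82 and 0.20. Before centring each was lower in late erythroid-like cells, with log2 ratios of -0.79 for Furin, -0.82 for Irs2 and -1.44 for Atf4.

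Receptor levels are given beside the classes that led for the factors. Igf1r, the receptor of Igf1, was at 5.79 CPM in the Cd5l-high cluster that led for Igf1. It stood at 148 CPM in the unnamed progenitor cluster, 133 CPM in neutrophil-like cells with runs from 68.1 to 150 CPM, 129 CPM in stromal-marker cells and 94.8 CPM in megakaryocyte-like cells. In early erythroid-like cells Igf1r was at 12.8 CPM with runs from 3.12 to 22.2 CPM, and in late erythroid-like cells it was at 1.29 CPM. The BMP receptor Bmpr1a was at 35.2 CPM in stromal-marker cells, from 15 UMIs, and at 7.25 CPM in neutrophil-like cells. Bmpr2, the type II receptor that pairs with it, was at 203 CPM in endothelial-marker cells and 174 CPM in stromal-marker cells, against 52.1 CPM in the Cd5l-high cluster and 1.71 CPM in early erythroid-like cells. Tgfbr2, the receptor that binds Tgfb1, was at 222 CPM in the Cd5l-high cluster, 104 CPM in mature B cell-like cells and 0.431 CPM in early erythroid-like cells. The co-receptors Eng and Tgfbr3 were highest in marker cells, with Eng at 413 CPM in endothelial-marker and 239 CPM in stromal-marker cells and Tgfbr3 at 197 CPM in stromal-marker cells. Gfral, the receptor of Gdf15, was not found by symbol among the counted genes and could not be analysed. The same held for the listed partner genes Bmpr1b, Chrd and Igfbp1.

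**Figure D5:**
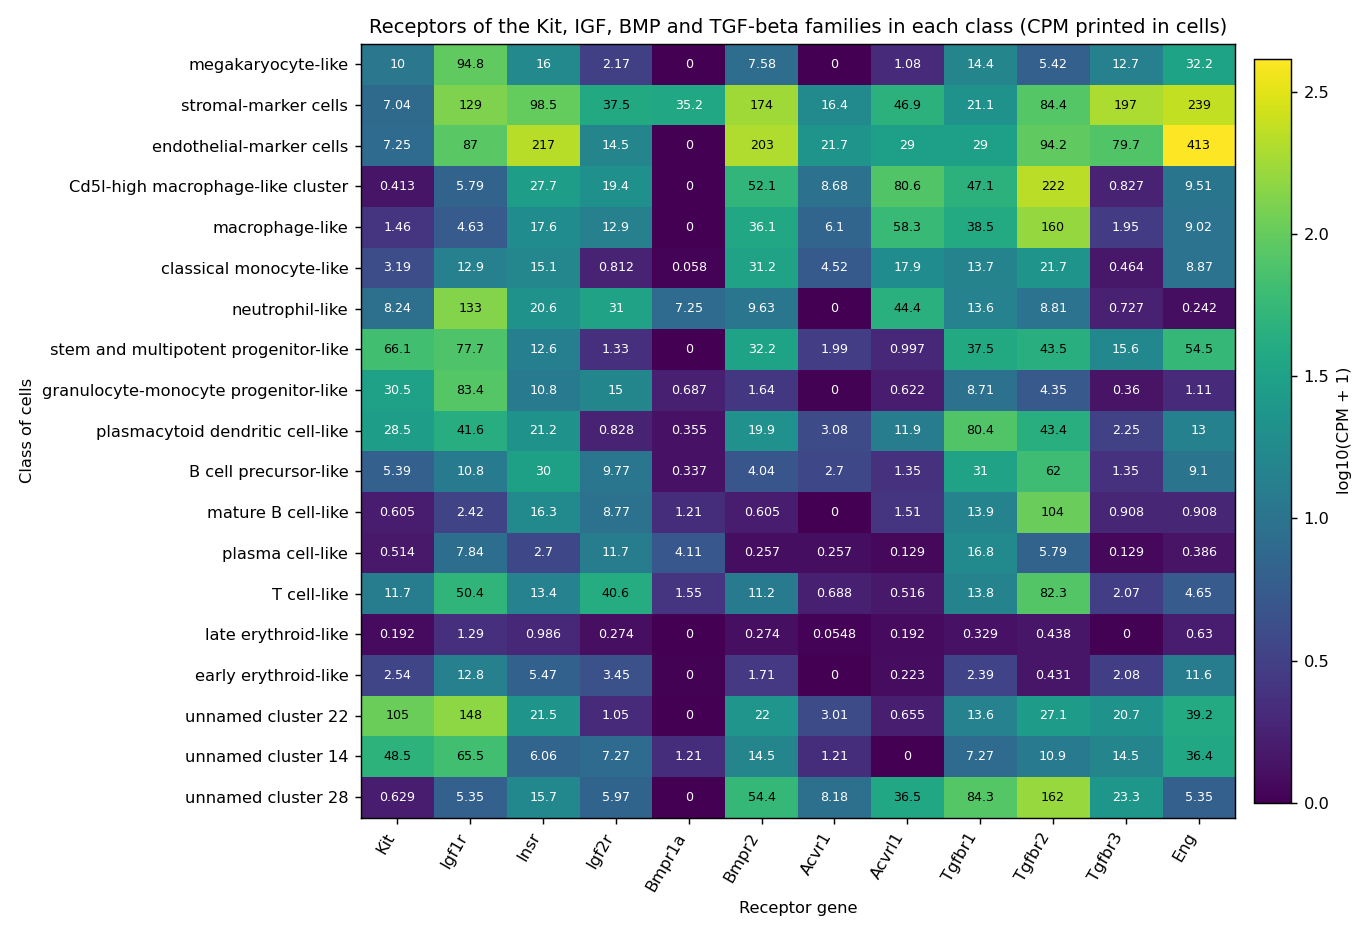
Level of the receptors of the Kit, insulin-like growth factor, BMP and TGF-beta families (columns) in each class (rows), with CPM printed in the cells. Igf1r was at 133 CPM in neutrophil-like cells and 5.79 CPM in the Cd5l-high cluster, while Tgfbr2 was at 222 CPM in the Cd5l-high cluster.

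Genes that bind, hold back or release these factors had several leading classes. Stromal-marker cells had 2106 CPM of Igfbp5 and 1710 CPM of Igfbp4, carriers of insulin-like growth factors, against 123 and 1044 CPM in endothelial-marker cells and 9.51 CPM of Igfbp5 in the Cd5l-high cluster. Grem1, a secreted BMP antagonist, was at 120 CPM in stromal-marker cells from 51 UMIs. Bmp6, another BMP ligand, was at 65.7 CPM there from 28 UMIs, and Bmp2 was at 24.8 CPM in the Cd5l-high cluster. Latent Tgfb1 is held by Ltbp1 and Lrrc32 and released by Thbs1, among others. All 3 were highest in the endothelial-marker cells, which also hold megakaryocyte markers, with Ltbp1 at 290 CPM from 40 UMIs, Lrrc32 at 196 CPM and Thbs1 at 1196 CPM. Nrros, which holds latent Tgfb1 on myeloid cells, was at 148 CPM in the Cd5l-high cluster, 119 CPM in classical monocyte-like and 108 CPM in macrophage-like cells. In megakaryocyte-like cells Ltbp1 was at 158 CPM with runs from 12.9 to 205 CPM. Lrrc32 was at 62.6 CPM and Thbs1 at 1080 CPM in the same cells, with runs of Thbs1 from 103 to 4354 CPM.

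The genes most like each factor were taken as the 3 with the highest Pearson correlation of log2(CPM + 10) over the 15 classes, a description over classes that share libraries. For Kit these were Fam69b (0.89), Sh2d5 (0.87) and Kcnk12 (0.87). For Kitl they were Sned1 (0.99), Matn4 (0.97) and C1ra (0.97), and for Bmp4 Ltbp2 (0.9998), S100b (0.9998) and Svep1 (0.9997). For Igf1 they were Pdgfc (0.99), Slco2b1 (0.99) and Slc16a9 (0.98), and for Gdf15 Snx24, C1qc and Vsig4 (0.98 each). For Tgfb1 they were Sgta (0.96), Ube2q2 (0.95) and Nudt3 (0.95).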

How the data were processed

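A single table of UMI counts, raw and without normalisation, was deposited for all 8 libraries. Cell Ranger 5.0.0, the build mm10 and Seurat 3.1.5 are listed in the submitters' processing notes. How the authors filtered cells is not given in the sources used here. Deposited cells had 201 to 4999 genes per cell and at most 20% mitochondrial UMIs, so the filters of 200 genes and 20% removed no cell. No per-sample column was left unused (0).

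Because no column ties a cell to a library, the planned edgeR tests between groups were not made and levels describe the pooled cells. The 6 genes, the partner lists and the marker lists were chosen with earlier results of these data known. Doublets were called within runs by the Scrublet method in scanpy 1.11.5, which marked 17 cells (0.0682%). A caller that marks so few has not worked, so an alternative left out the highest 6% of scores. Cells were scaled to 10000 UMIs, and 33 Leiden clusters were built from 2000 variable genes, 30 components and 15 neighbours (resolution 1, seed 0) with Python 3.11.15 (scikit-learn 1.9.0, leidenalg 0.10.2, numpy 2.4.6, scipy 1.17.1, pandas 2.3.3, matplotlib 3.10.9). Cells with at least 3 stromal genes, or at least 3 endothelial and fewer than 3 stromal genes, were first set apart, chosen after seeing the data. A cluster was named for the class with most markers among its 50 leading genes of at least 50 CPM, with at least 3 detected. Names may differ from the authors' own.

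Genes named are the 6, the receptors of the partner lists, up to 4 genes of each list with the largest ratios, and the 3 genes most alike. Others, such as Smad1, Smad5, the genes that lead clusters and the carriers, antagonists and activators by class, were chosen after their values were seen. Comparisons used log2 ratios after adding 10 CPM, where either class had at least 20 CPM, with runs of at least 20 cells. Shares have exact 95% Clopper-Pearson intervals and a count of 0 an upper limit of 3 UMIs. The calculation was tested on simulated data. Alternatives were resolutions 0.5 and 2, all genes allowed as variable, stricter filters of 500 genes and 10%, doublets kept, globin left out of totals, a pseudocount of 1 and each run left out. Chosen later, after seeing the data, were the doublet score limit, repeated barcodes left out, marker cells returned to their clusters or reduced, totals that include globin, and bins of globin share without each run.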

Additional observations from a re-analysis of the deposited data

How the results depend on the processing

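No paired analysis was possible because the columns carry no replicate number of the labels; ratios were looked at within runs instead. No ratio of 2-fold or more changed sign. The late over early erythroid-like ratio of Tgfb1, not called at -0.68, was 0.15 with the stricter filter, 0.05 without repeated barcodes and 0.0073 without the highest doublet scores. The class that led each gene was the same under every alternative in which that class existed; with marker cells returned to their clusters, macrophage-like cells led for Kitl and Bmp4. Ratios given here for each gene keep the first and next class of the main clustering, whichever class came next under the alternative. At resolution 0.5 this log2 ratio was 4.25 for Kitl, 0.65 for Igf1 and 2.05 for Gdf15, and 266 genes were lower in macrophage-like cells. At resolution 2 Kit had a level of 97.5 CPM and a ratio of 1.41, Kitl 3.42 and Igf1 1.93. The stricter filter gave 0.89 for Tgfb1. Without the highest doublet scores Kit had 93.5 CPM and a ratio of 1.32, Kitl 399 CPM and 3.12, Igf1 1.92 and Gdf15 3.63, with 893 genes higher and 635 lower in macrophage-like cells. A pseudocount of 1 gave 4.12 for Kitl, 5.03 for Bmp4, 3.13 for Kit in cells with under 2% over those with 2 to 20% globin, and 916 genes higher in late erythroid-like cells, of which there were 1113 with globin left out. With globin kept in the totals the Tgfb1 ratio of the highest over the lowest globin bin was -3.33. Without stromal-marker cells of 5 or more macrophage markers Bmp4 had 29.1 CPM and 1.89, Igf1 1.97 and Gdf15 4.01. Leaving out each run in turn, the ratio ranged from 0.82 to 2.60 for Bmp4 (level 7.63 to 53.8 CPM), 2.51 to 3.13 for Gdf15 (279 to 502 CPM), 1.06 to 2.42 for Igf1 (249.7 to 382 CPM), 0.87 to 1.60 for Kit (65.7 to 113 CPM, the highest without run 6, where 3 stem-like cells were left) and 3.32 to 3.92 for Kitl (297 to 492 CPM). For Tgfb1 it ranged from 0.16 without run 4 to 2.0 without run 6 (510 to 1092 CPM). The lowest Bmp4, Gdf15 and Tgfb1 levels were those without run 6. In macrophage-like cells 463 to 650 genes were higher and 381 to 441 lower. The Kit stage ratio ranged from 0.96 to 1.32 and that of Tgfb1 from -1.44 to -1.16. The cause of these shifts was not tested. Few UMIs limit Bmp4, and few stromal, endothelial and stem-like cells outside run 6 limit what single runs can show.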
